A study of Mus musculus with 12 samples.

Results

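Cubn, Amn, Lrp2 and Dab2 encode cubilin, amnionless, megalin and the adaptor protein Dab2, which together form the endocytic receptor complex of the visceral endoderm. The genes were picked by symbol, 4 of the 32285 genes in the count table. All 4 were among the 18693 genes that passed the filter on low counts. Their transcripts were measured by RNA-seq in 12 libraries of the mouse embryonic stem (ES) cell line E14Tg2a.IV. The labels name a Smad2/3 double knockout (S2/3DKO), a Smad4 knockout (S4KO) and wild type (WT), each with 2 libraries at each of 2 times. Day 4 (D4) cells had been without LIF, the cytokine that holds ES cells undifferentiated, and had grown as embryoid bodies (EBs), cell aggregates in which endoderm forms at the surface. Day 0 (D0) cells were undifferentiated ES cells. All groups share the parental line as labelled, no other agent is named, and whether a knockout is 1 clone or the replicates were separate cultures is not stated. The p-values therefore measure the spread between these libraries, part of which may be technical.

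Cubilin is a large extracellular receptor with no membrane-spanning segment, and amnionless is the small membrane protein that carries it to the cell surface and anchors it there. Megalin is a giant transmembrane receptor of the low-density lipoprotein receptor family, and Dab2 binds the tail of such receptors and links them to clathrin and to the AP2 adaptor. In the mouse embryo the visceral endoderm uses this complex to take up maternal lipoproteins, vitamin carriers and other proteins before the placenta functions. Megalin is also made by the early neural epithelium and by absorptive epithelia such as the kidney tubule. Smad2 and Smad3 transmit signals of Nodal and activin, and Smad4 assembles with them and with the Smads of the BMP branch.

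The genes lie at separate places in the genome (build mm10, GENCODE M21). Cubn (ENSMUSG00000026726) is on the minus strand at chr2:13276338-13491813, and Lrp2 (ENSMUSG00000027070) on the minus strand at chr2:69424340-69586065. Amn (ENSMUSG00000021278) is on the plus strand at chr12:111271095-111276426, and Dab2 (ENSMUSG00000022150) on the plus strand at chr15:6299788-6440712. Their merged exons cover 14935 bases for Cubn, 1843 for Amn, 16701 for Lrp2 and 7342 for Dab2. The longest transcript of each, in the same order, has 46.4%, 62.9%, 49.1% and 45.7% G and C. Amn is thus the shortest and the richest in G and C. Exons of Cubn overlap the opposite-strand transcript Gm13270, which had at most 34 counts in any library, and exons of Dab2 overlap the opposite-strand pseudogene Gm18888. The strand setting of the counting is not given in the sources used here, so reads of such overlapping pairs cannot be told apart.

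The 250 bases before each RefSeq start site (build GRCm38.p6) are shown because the 4 genes are compared as a set. All 4 genes matched the RefSeq table, Dab2 with 2 start sites. The windows are Cubn chr2:13491877-13492126 (minus strand), Amn chr12:111270846-111271095 (plus), Lrp2 chr2:69586030-69586279 (minus), Dab2 window 1 chr15:6299539-6299788 (plus) and Dab2 window 2 chr15:6386498-6386747 (plus). The windows end at the RefSeq starts, which differ from the GENCODE gene ends given above for Cubn, where the RefSeq start lies upstream, and for Lrp2, where it lies inside the GENCODE gene. Each is written 5′ to 3′ on the gene's strand, and capitals mark matches to 5 short motifs.
Cubn: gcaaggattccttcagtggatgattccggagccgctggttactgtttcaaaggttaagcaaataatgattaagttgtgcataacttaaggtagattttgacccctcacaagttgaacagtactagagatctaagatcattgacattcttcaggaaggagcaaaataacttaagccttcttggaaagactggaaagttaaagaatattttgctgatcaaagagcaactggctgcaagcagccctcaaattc
Amn: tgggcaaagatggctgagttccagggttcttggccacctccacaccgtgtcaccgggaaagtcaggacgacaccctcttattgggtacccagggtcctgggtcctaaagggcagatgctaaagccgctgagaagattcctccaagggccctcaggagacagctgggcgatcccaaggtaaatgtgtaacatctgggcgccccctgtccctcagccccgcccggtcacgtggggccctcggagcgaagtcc
Lrp2: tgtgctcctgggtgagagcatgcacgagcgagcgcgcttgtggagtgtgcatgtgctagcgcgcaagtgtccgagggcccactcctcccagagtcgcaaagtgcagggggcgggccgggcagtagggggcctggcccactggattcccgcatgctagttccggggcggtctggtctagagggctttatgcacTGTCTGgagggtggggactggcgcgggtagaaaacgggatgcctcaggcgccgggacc
Dab2 window 1: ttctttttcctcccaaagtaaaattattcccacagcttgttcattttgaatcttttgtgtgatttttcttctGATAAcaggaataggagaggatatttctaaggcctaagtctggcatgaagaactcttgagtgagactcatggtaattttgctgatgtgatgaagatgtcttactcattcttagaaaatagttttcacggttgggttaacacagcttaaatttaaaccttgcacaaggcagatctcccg
Dab2 window 2: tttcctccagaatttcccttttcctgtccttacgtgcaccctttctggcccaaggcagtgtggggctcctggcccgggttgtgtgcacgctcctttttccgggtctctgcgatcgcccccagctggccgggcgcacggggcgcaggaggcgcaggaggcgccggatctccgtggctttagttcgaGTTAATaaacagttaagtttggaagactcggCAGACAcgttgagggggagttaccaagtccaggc
The motifs were GATAA (GATA factors), GTTAAT (a homeodomain half-site), TGTTTAC (FOXA factors), CAAAGTCC (an HNF4 half-site) and CAGACA (Smads), searched on both strands. None of the matches overlapped another. CAGACA was found once in the Lrp2 window, on the minus strand relative to the gene, 58 to 53 bases before the start, and once in Dab2 window 2, 34 to 29 bases before it. GATAA was found 178 to 174 bases before the start in Dab2 window 1, and GTTAAT 65 to 60 bases before it in Dab2 window 2. The Cubn and Amn windows held none of the 5 motifs. Over all 32817 promoter windows of the same length, CAGACA occurred in 17.1%, GATAA in 22.6%, GTTAAT in 6.44%, TGTTTAC in 3.16% and CAAAGTCC in 1.2%. The 5 windows also differed in base composition, from 36.8% G and C in Dab2 window 1 to 66.4% in the Lrp2 window.

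Libraries held 31566376 to 55806858 counts, the fewest in S4KO D4 replicate 2, and in every S2/3DKO and S4KO library the transcripts of the targeted genes were still present. Smad2 had 37.8 to 48.3 CPM (counts scaled to library size) in the S2/3DKO libraries and 29.5 to 96.8 CPM in WT, and Smad3 had 13.1 to 31.3 CPM in S2/3DKO and 9.68 to 50.2 CPM in WT. Smad4 had 79.6 to 144 CPM in S4KO and 49.6 to 137 CPM in WT. A whole-gene count does not test a knockout whose edited exons are not given. Hprt, in which the E14Tg2a line is known to be deficient, had 169 to 212 CPM in the libraries labelled S4KO, against 0.182 to 0.723 CPM in S2/3DKO and 0.249 to 0.627 CPM in WT. A difference of parental line and the loss of Smad4 cannot be told apart in the comparisons of S4KO. Ribosomal protein transcripts took 5.12% to 7.96% of the counts in all other libraries and 11.2% and 15.2% in the WT D0 libraries. Mitochondrial transcripts took 6.74% of the counts in S2/3DKO D0 replicate 2 and 1.87% to 3.93% in the other libraries. The part of these differences in the results was not tested.

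In WT cells all 4 genes rose by day 4, Cubn and Dab2 by the largest factors of the 4. The question here is whether EB formation brings on the complex as a whole. Cubn had 372 and 296 CPM in the WT D4 libraries, against 0.527 and 0.757 CPM in the WT D0 libraries (22 and 35 counts). Both D4 libraries stood far above both D0 libraries. The log2 fold change was 9.01 ± 0.71 (SE; edgeR's quasi-likelihood test, adjusted p = 5.53e-05). Over the settings that kept every library, this value was 4.87 to 9.02. Dab2 had 270.0 and 226 CPM at D4 and 1.94 and 2.98 CPM at D0, a log2 fold change of 6.65 ± 0.58 (edgeR, adjusted p = 9.14e-05). Dab2 was thus low but countable before differentiation. Lrp2 had 592 and 546 CPM at D4 and 33.6 and 36.9 CPM at D0, a log2 fold change of 4.01 ± 0.59 (edgeR, adjusted p = 0.000578). Of the 4, Lrp2 had the most counts in WT ES cells, but its exons are also the longest, and levels per length are given below. The 2 Lrp2 replicates lay close together on both days. Amn had 4.72 and 27.7 CPM at D4 and 1.75 and 1.97 CPM at D0, a log2 fold change of 3.12 ± 0.86 (edgeR, adjusted p = 0.0134). The Amn groups did not overlap, but its D4 replicates differed 5.87-fold.

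All 4 members rose in WT, where 23.8% of all genes tested were called higher and the median log2 fold change over all genes was 0.083. The median over the members was 5.33. In EBs, which hold several cell types, more cells of a type and more RNA per cell cannot be told apart. The rise of Amn was not called without WT D4 replicate 2 (1.38, adjusted p = 0.188), without WT D0 replicate 1 (3.04, 0.0936) or without WT D0 replicate 2 (3.21, 0.0717). The other 3 stayed called whichever library was left out.

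**Figure D1:**
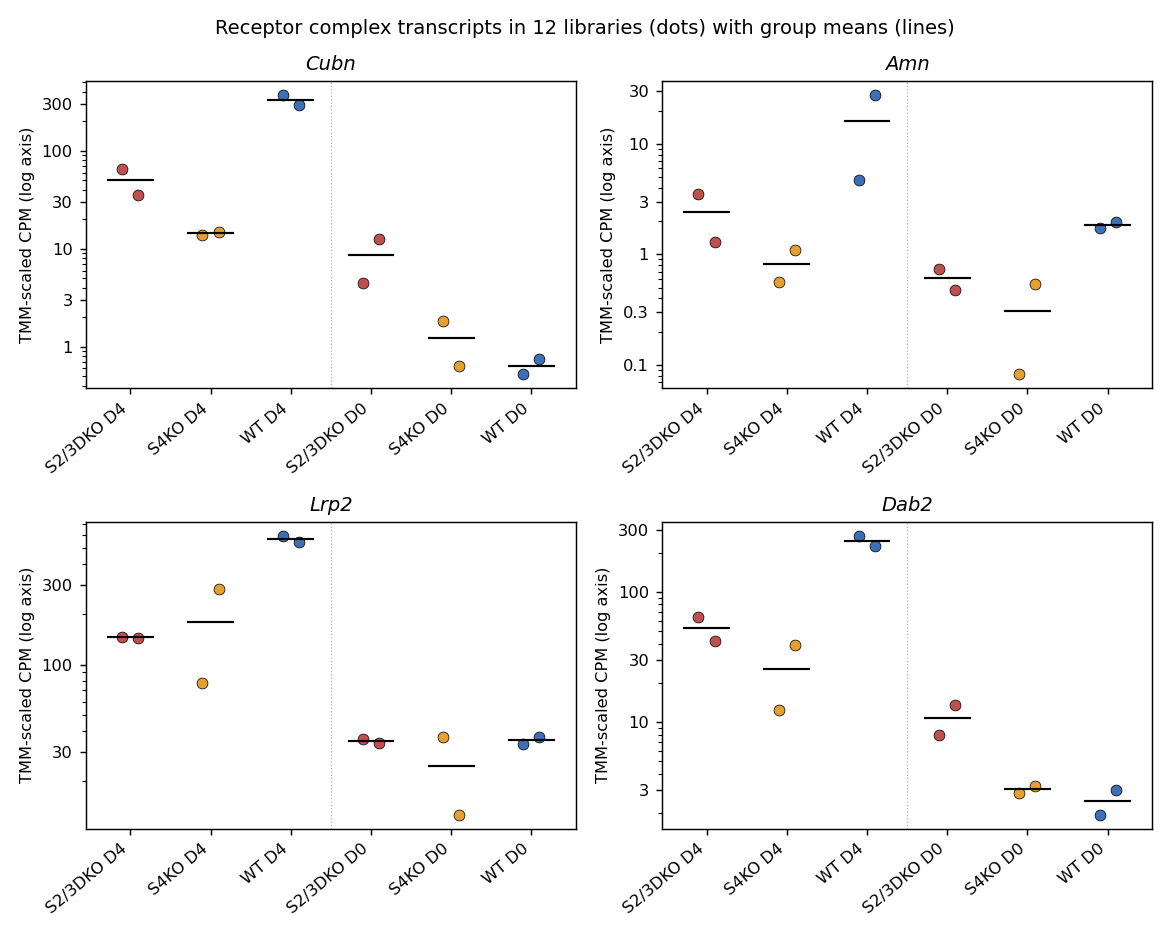
CPM (TMM-scaled, log axis) of each gene in the 12 libraries. Dots are libraries, lines are means of 2, and the dotted line separates day 4 from day 0. WT D4 holds the highest library of every gene, with Cubn at 372 CPM and Lrp2 at 592 CPM. In S4KO D4 the 2 libraries of Cubn lie together (13.7 and 15.0 CPM) while those of Lrp2 lie apart (77.2 and 282 CPM).

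Per length, in FPKM (fragments scaled to transcript length and to library size), the members lay at different levels, with a wide spread for Amn. In WT D4, Dab2 averaged 57.0 ± 6.83 FPKM, Lrp2 37.2 ± 2.03, Cubn 29.8 ± 4.63 and Amn 9.65 ± 9.71 (SD, n = 2). In WT D0 the order was different, with Lrp2 at 2.00 ± 0.21 FPKM, Amn at 1.02 ± 0.26, Dab2 at 0.496 ± 0.142 and Cubn at 0.0485 ± 0.0157. Within a library, the FPKM of Amn over that of Cubn was 0.0840 and 0.623 in WT D4, against 22.5 and 20.2 in WT D0. The anchor's transcript thus exceeded the receptor's in WT ES cells and lay below it in WT EBs in both libraries.

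In both knockouts Cubn, Lrp2 and Dab2 rose by day 4 and Amn was not called. In S2/3DKO, 3 of 4 members rose by day 4, where 3.57% of all genes were called higher. Cubn had 64.9 and 35 CPM in S2/3DKO D4 and 4.52 and 12.7 CPM in S2/3DKO D0, a log2 fold change of 2.54 ± 0.52 (edgeR, adjusted p = 0.0197). Dab2 had 64.0 and 41.5 CPM at D4 and 7.92 and 13.6 CPM at D0 (2.29 ± 0.48, adjusted p = 0.0204). Lrp2 had 146 and 144 CPM at D4 and 36 and 33.8 CPM at D0 (2.06 ± 0.54, adjusted p = 0.0443). In each of these the D4 libraries lay above the D0 libraries. Amn had 3.52 and 1.28 CPM at D4 and 0.743 and 0.475 CPM at D0, and its log2 fold change of 1.97 ± 0.86 was not called (adjusted p = 0.183), although it was with a trend of counts with exon length and G and C content removed (1.90, 0.0469). None of the 4 was called when S2/3DKO D4 replicate 1 or replicate 2 was left out, or S2/3DKO D0 replicate 1, with adjusted p of 0.0817 to 0.196 for Cubn, Dab2 and Lrp2. The call for Lrp2 was also lost without S2/3DKO D0 replicate 2 (adjusted p = 0.128) and without either WT D0 library (0.0706 and 0.0705).

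In S4KO, Cubn, Lrp2 and Dab2 rose, 3 of 4 members, where 5.08% of all genes were called higher. Cubn had 13.7 and 15.0 CPM in S4KO D4 and 1.82 and 0.634 CPM in S4KO D0, a log2 fold change of 3.55 ± 0.56 (edgeR, adjusted p = 0.00531). Dab2 had 12.3 and 38.9 CPM at D4 and 2.84 and 3.25 CPM at D0 (3.07 ± 0.50, adjusted p = 0.00576). Lrp2 had 77.2 and 282 CPM at D4 and 36.7 and 12.6 CPM at D0 (2.86 ± 0.56, adjusted p = 0.0117). The lowest D4 library of each of these stood above its highest D0 library. Amn stayed at 0.566 and 1.09 CPM at D4 and 0.0828 and 0.535 CPM at D0 (1.38 ± 0.93, adjusted p = 0.383), with as few as 4 counts in S4KO D0 replicate 1. The Lrp2 call was lost without S4KO D4 replicate 2 (1.62, adjusted p = 0.120) and without S4KO D0 replicate 2 (2.22, adjusted p = 0.0584).

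At day 4, Cubn and Dab2 were lower in both knockouts than in WT EBs. Cubn stood at 15.0% of the WT D4 mean in S2/3DKO D4 and at 4.30% in S4KO D4. Its log2 fold change against WT D4 was -2.74 ± 0.52 in S2/3DKO (edgeR, adjusted p = 0.00576) and -4.54 ± 0.56 in S4KO (adjusted p = 0.0031). Dab2 stood at 21.3% of WT in S2/3DKO and at 10.3% in S4KO, with log2 fold changes of -2.23 ± 0.47 (adjusted p = 0.0099) and -3.28 ± 0.49 (adjusted p = 0.00874). The highest knockout library of either gene, 64.9 CPM for Cubn and 64.0 CPM for Dab2, lay far below its lowest WT D4 library, 296 and 226 CPM.

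Lrp2 stood at 25.5% of WT D4 in S2/3DKO D4, where it was lower (-1.97 ± 0.54, edgeR, adjusted p = 0.0306), and at 31.6% in S4KO D4, where it was not called (-1.66 ± 0.53, adjusted p = 0.160). The 2 S4KO D4 libraries differed 3.65-fold, 77.2 CPM in replicate 1 and 282 CPM in replicate 2, and without replicate 2 the gene was called (-2.84, adjusted p = 0.0206). DESeq2 called it with all libraries (-1.68, adjusted p = 0.0284). Amn stood at 14.8% of WT in S2/3DKO (-2.75 ± 0.84, adjusted p = 0.0484) and at 5.10% in S4KO (-4.31 ± 0.92, adjusted p = 0.0429). Its highest knockout library, 3.52 CPM, lay below the lower WT D4 library of 4.72 CPM.

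Against WT D4, 4 of 4 members were lower in S2/3DKO, where 8.0% of all genes were, and 3 of 4 in S4KO, where 1.05% of all genes were. The median log2 fold change over the members was -2.49 in S2/3DKO and -3.79 in S4KO, and over all genes -0.0287 and -0.0251. These comparisons share the WT D4 libraries. Without WT D4 replicate 2, the library in which Amn was high, Amn was not called in S2/3DKO (-1.03, adjusted p = 0.411) or S4KO (-2.61, 0.135). Without S2/3DKO D4 replicate 2 none of the 4 was called in S2/3DKO, with adjusted p of 0.0685 for Cubn, 0.26 for Amn, 0.151 for Lrp2 and 0.0931 for Dab2. Without S2/3DKO D4 replicate 1, Lrp2 (0.149) and Amn (0.0917) were lost, without WT D4 replicate 1 Lrp2 (0.104). The call for Amn in S2/3DKO was also lost without any 1 of the WT D0, S2/3DKO D0 and S4KO D4 libraries (0.0515 to 0.0731). In S4KO it was lost without either WT D0 library (0.078 and 0.0782) or either S4KO D4 library (0.315 and 0.0739).

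**Figure D2:**
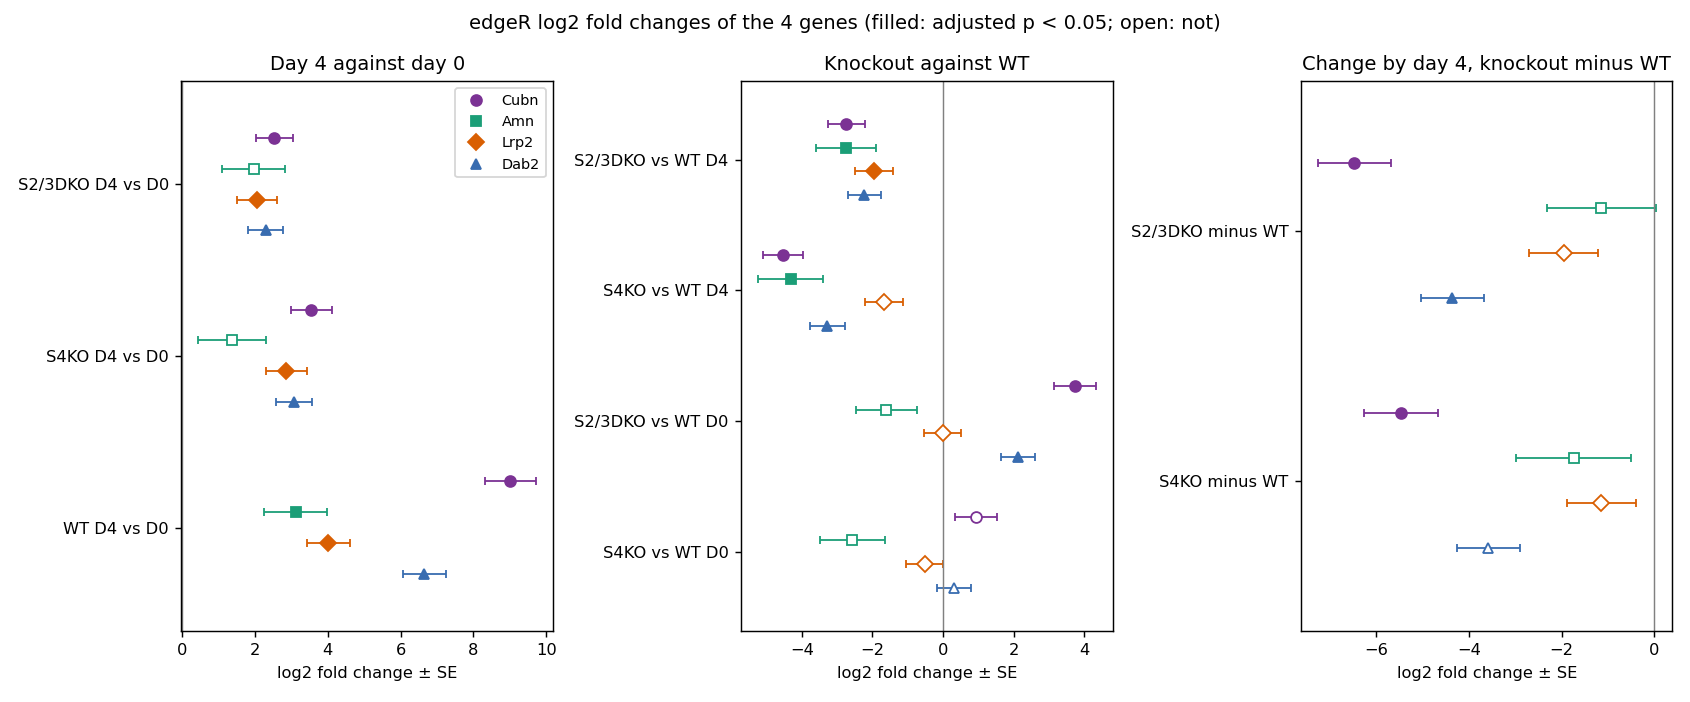
Log2 fold changes with standard errors for Cubn, Amn, Lrp2 and Dab2 in 9 comparisons from the edgeR fit, filled where the adjusted p was below 0.05. In the left panel the WT points for Cubn (9.01) and Dab2 (6.65) lie to the right of the knockout points. In the middle panel the day 4 values lie below 0 in both knockouts, and at day 0 Cubn (3.73) and Dab2 (2.12) lie above 0 in S2/3DKO.

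Before differentiation, the cubilin and Dab2 transcripts were already higher in S2/3DKO cells. Cubn had 4.52 and 12.7 CPM in S2/3DKO D0, against 0.527 and 0.757 CPM in WT D0 (log2 fold change 3.73 ± 0.59, edgeR, adjusted p = 0.00231). Dab2 had 7.92 and 13.6 CPM in S2/3DKO D0, against 1.94 and 2.98 CPM in WT D0 (2.12 ± 0.49, adjusted p = 0.00914). In both genes the lower knockout library was above the higher WT library. Lrp2 had 36 and 33.8 CPM in S2/3DKO D0 and 33.6 and 36.9 CPM in WT D0, groups that overlapped, and was not called (-0.02 ± 0.52, adjusted p = 0.993), with a sign that turned under other scalings. Amn had 0.743 and 0.475 CPM in S2/3DKO D0 and 1.75 and 1.97 CPM in WT D0, a difference that was not called (-1.60 ± 0.86, adjusted p = 0.178). Thus 2 of 4 members were higher, where 16.7% of all genes were. The Dab2 call was lost without WT D0 replicate 1 (1.85, adjusted p = 0.0953) and without S2/3DKO D0 replicate 2 (1.71, adjusted p = 0.0543), where Cubn was still called (2.83, adjusted p = 0.0131).

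Replicate 2, the S2/3DKO D0 library with more Cubn and Dab2, was also the one with 6.74% mitochondrial transcripts, against 2.73% in replicate 1, and its pluripotency genes summed to 2040 CPM, against 3560 CPM in replicate 1 and 4240 to 4530 CPM in WT D0. These S2/3DKO D0 libraries also held more transcripts of other extraembryonic genes. Of the 6 endoderm factors shared by visceral and parietal endoderm, 5 were higher than in WT D0 and the summed level was 15.7 to 23.8 CPM in S2/3DKO D0, against 1.85 to 2.18 CPM in WT D0. Gata4, a factor of primitive endoderm, had 6.10 and 8.01 CPM in S2/3DKO D0, against 1.03 and 1.08 CPM in WT D0. Of 14 trophectoderm markers 10 were higher, at 775 to 1160 CPM in S2/3DKO D0 against 237 to 251 CPM in WT D0. Of 11 parietal endoderm markers 6 were higher, at 940 to 1130 CPM in S2/3DKO D0 against 472 to 486 CPM in WT D0. Of 16 visceral endoderm markers 1, the nuclear receptor Hnf4a, was higher, at a summed 99.4 to 108 CPM in S2/3DKO D0 against 61.5 to 72.7 CPM in WT D0. Rhox5 took 67.0 and 76.4 CPM of that sum in S2/3DKO D0 and 45.9 and 37.1 CPM in WT D0. The markers Afp, Ttr, Apoa4 and Fgb had no counts in S2/3DKO D0. In WT D0 Afp had 3 counts and Ttr, Apoa4 and Fgb none. The part of these cell types and of the mitochondrial share in the day 0 levels of Cubn and Dab2 was not tested.

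In S4KO D0 none of the 4 members was called against WT D0, where 19.6% of all genes were called in either direction. By an unadjusted p below 0.05, 1 of the 4 passed, as did 1 by DESeq2, and in both it was Amn. Amn had 0.0828 and 0.535 CPM in S4KO D0, against 1.75 and 1.97 CPM in WT D0 (-2.57 ± 0.92, edgeR, adjusted p = 0.0701, DESeq2 adjusted p = 0.00987). edgeR called it without S4KO D0 replicate 2 (-4.42, adjusted p = 0.0346) and without either WT D4 library (0.0267 and 0.0339). The Amn libraries rest on 4 and 27 counts in S4KO D0 and on 73 and 91 in WT D0. Cubn had 1.82 and 0.634 CPM in S4KO D0 (0.92 ± 0.60, adjusted p = 0.300) and Dab2 2.84 and 3.25 CPM (0.30 ± 0.49, adjusted p = 0.703), and both overlapped WT D0. Lrp2 had 36.7 and 12.6 CPM in S4KO D0 against 33.6 and 36.9 CPM in WT D0 and also overlapped (-0.52 ± 0.52, adjusted p = 0.521). Without S4KO D0 replicate 2 the Lrp2 value was 0.079, and without S4KO D0 replicate 1 the Cubn value was -0.022.

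Between the knockouts, S4KO had less Cubn than S2/3DKO on both days. The log2 fold change of S4KO over S2/3DKO was -2.81 ± 0.55 at D0 (edgeR, adjusted p = 0.0146) and -1.80 ± 0.50 at D4 (adjusted p = 0.0389). Cubn was the 1 member of 4 called on either day, where 3.38% of all genes were lower at D0 and 6.45% at D4. For Dab2 the values were -1.82 ± 0.48 at D0 (adjusted p = 0.0509) and -1.05 ± 0.46 at D4 (0.161), for Amn -0.97 ± 0.93 (0.607) and -1.56 ± 0.86 (0.265). Dab2 at D0 was called by DESeq2 (adjusted p = 0.00195) and without S2/3DKO D0 replicate 1 (0.0313) or either S4KO D4 library (0.0118 and 0.0117), and at D4 without S4KO D4 replicate 2 (-2.10, 0.0204). For Lrp2 the values were -0.50 ± 0.52 (0.640) and 0.30 ± 0.52 (0.760), and the D4 sign turned on the FPKM scale and without S4KO D4 replicate 2 (-0.92). The D0 call for Cubn was lost without S2/3DKO D0 replicate 2 (adjusted p = 0.116) and without S4KO D0 replicate 2 (0.0761). The D4 call was lost without either WT D0 library (0.0576 and 0.0574), either S2/3DKO D4 library (0.244 and 0.0632) or either S4KO D4 library (0.156 and 0.155).

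The log2 change by day 4 was itself compared between genotypes, as knockout minus WT. For Cubn the difference was -6.47 ± 0.79 in S2/3DKO (edgeR, adjusted p = 0.00664) and -5.46 ± 0.80 in S4KO (adjusted p = 0.0230). For Dab2 the differences were -4.36 ± 0.68 in S2/3DKO (adjusted p = 0.0127) and -3.58 ± 0.68 in S4KO (adjusted p = 0.0638, not called). For Lrp2 they were -1.95 ± 0.74 (adjusted p = 0.114) and -1.15 ± 0.74 (0.391), for Amn -1.15 ± 1.17 (0.544) and -1.74 ± 1.24 (0.440), and none was called. Thus 2 of 4 members were called lower in S2/3DKO, where 4.26% of all genes were, and 1 of 4 in S4KO, where 0.139% were. The higher day 0 levels of Cubn and Dab2 in S2/3DKO, by 3.73 and 2.12 log2 units, enter these differences. So does the WT D0 level of Cubn, which rests on 22 and 35 counts. Over the settings that kept every library, the Cubn difference was -6.516 to -3.185 in S2/3DKO and -5.528 to -3.814 in S4KO. For Dab2 in S2/3DKO the call was lost without WT D0 replicate 1 (adjusted p = 0.0975) or S2/3DKO D4 replicate 2 (0.0712). For Cubn in S4KO it was lost without either WT D0 library (0.194 and 0.0671), WT D4 replicate 1 (0.0885), S4KO D0 replicate 1 (0.084) or S4KO D4 replicate 1 (0.0819). Dab2 in S4KO was called by DESeq2 (adjusted p = 3.11e-05) and without WT D4 replicate 2 (0.0241), S4KO D0 replicate 2 (0.0385) or S4KO D4 replicate 2 (0.0111).

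Over the 6 groups, WT D4 held the highest mean FPKM of every member and did not overlap the next group. For Cubn the order was WT D4, S2/3DKO D4, S4KO D4, S2/3DKO D0, S4KO D0 and WT D0, and only the last neighbours, S4KO D0 and WT D0, overlapped. Dab2 had the same order, with overlap between S4KO D4 and S2/3DKO D0 and between S4KO D0 and WT D0. For Lrp2, S4KO D4 came second and overlapped S2/3DKO D4, and S2/3DKO D0, WT D0 and S4KO D0 followed, the last pair overlapping. For Amn, WT D0 came after S2/3DKO D4, which it overlapped, and was above S4KO D4, S2/3DKO D0 and S4KO D0, which overlapped one another in turn. Amn was the member whose WT ES cells stood above the S4KO EBs, with 0.471 ± 0.196 FPKM in S4KO D4 and 1.02 ± 0.26 FPKM in WT D0 (SD, n = 2).

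The proportions between the members at day 4 are given as ratios of FPKM within a library. The FPKM of Cubn over that of Lrp2 was 0.600 and 0.330 in S2/3DKO D4, 0.241 and 0.0723 in S4KO D4 and 0.856 and 0.742 in WT D4. The 3 genotypes did not overlap, with WT highest and S4KO lowest. Cubn over Dab2 was 0.386 and 0.320 in S2/3DKO D4, 0.431 and 0.149 in S4KO D4 and 0.535 and 0.509 in WT D4. Both knockouts lay below WT, and S2/3DKO fell within the S4KO range. With 2 libraries a group, an exact permutation test of such a ratio cannot give a two-sided p below 0.333, so no test was made.

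**Figure D3:**
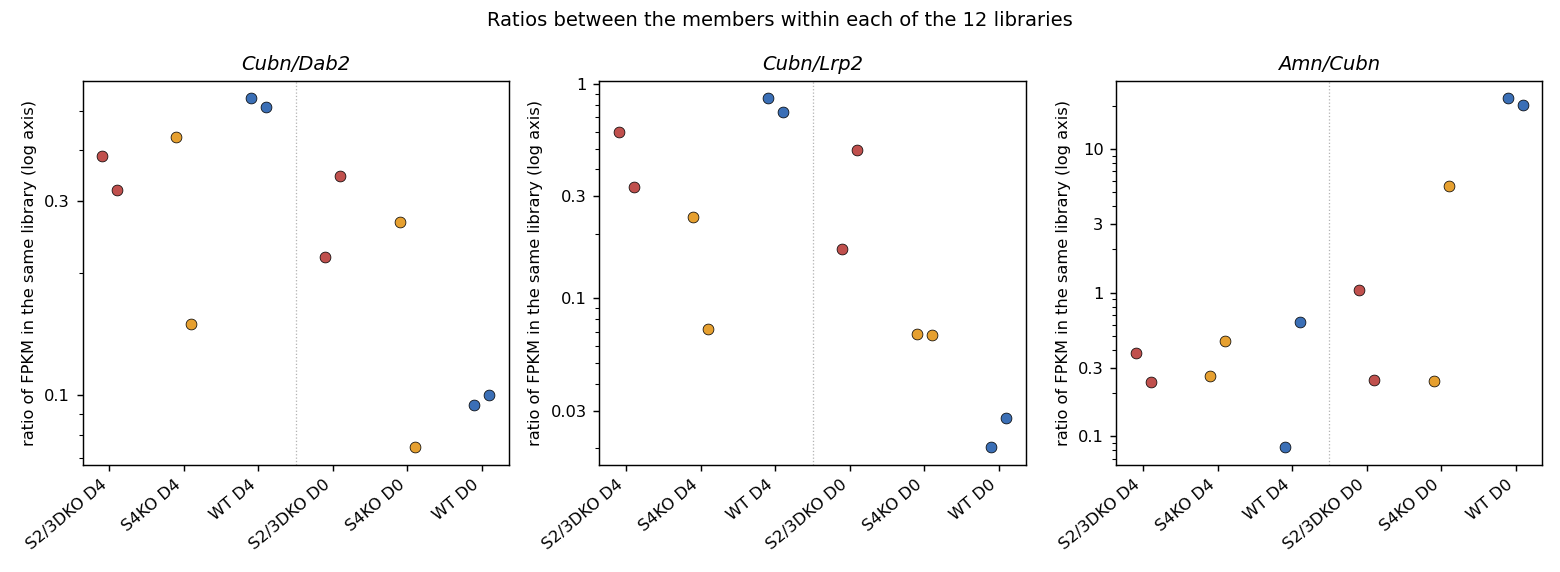
Ratios of FPKM between members within each library (log axes), day 4 left of the dotted line. Cubn over Lrp2 runs from 0.0723 in S4KO D4 replicate 2 to 0.856 in WT D4 replicate 1 among the day 4 libraries. Amn over Cubn is 22.5 and 20.2 in WT D0, above all other libraries.

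The replicates of some groups differed in the members more than in most genes. In WT D4, Amn was 2.53 log2 units higher in replicate 2, a gap reached by 52 of 13733 genes with at least 1 CPM (0.379%). Of these 52, 48 were higher in replicate 2, and those 48 had a median G and C content of 62.6% and a median exon length of 2067.5 bases, against 49.7% and 4385 bases over all 13733 genes. A trend of each library with exon length and G and C content, estimated over all genes, came to 1.5 of the 2.53 units at Amn and left 1.03. With that trend removed from all libraries, the rise of Amn by day 4 and its drop in both knockouts at day 4 were still called, and its rise in S2/3DKO became called.

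In S2/3DKO D4, the log2 ratio of replicate 2 over replicate 1 was -1.39 for Amn and -0.89 for Cubn, gaps reached by 0.275% and 1.81% of genes. In S2/3DKO D0, Cubn was 1.47 units higher in replicate 2, a gap reached by 4.11% of genes.

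In S4KO D4 the gap was in other members. Lrp2 was 1.87 and Dab2 1.65 log2 units higher in replicate 2, gaps reached by 1.30% and 2.05% of genes, while Cubn differed by 0.12. The length and G and C trend contributed 0.0049 units at Lrp2 and 0.12 at Dab2. The early neural markers summed to 62.7 CPM in S4KO D4 replicate 1 and 147 CPM in replicate 2, with Nes at 34.3 and 106 CPM and Sox1 at 7.78 and 24.4 CPM, while Pax6 (19.0 and 15.1 CPM) and Zic1 (0.906 and 0.404 CPM) were lower in replicate 2. The summed markers of visceral (43.5 and 66.2 CPM) and parietal endoderm (417 and 664 CPM) were also higher in replicate 2. So were those of definitive endoderm (66.9 and 132 CPM) and trophectoderm (178 and 379 CPM), and those of pluripotency were lower (2080 and 1250 CPM). Single genes carried much of some rises, Slc39a8 (8.31 and 33.6 CPM) in visceral and Otx2 (54.9 and 120 CPM) in definitive endoderm. In trophectoderm these were Krt8 (16.2 and 124 CPM) and Krt18 (36.2 and 153 CPM). The other visceral endoderm markers moved both ways, with Hnf4a at 7.98 and 2.55 CPM. The shared endoderm factors summed to 13.3 and 12.6 CPM. Afp had no counts in replicate 1 and 2.95 CPM in replicate 2. The part of these cell types in the gap was not tested. In S4KO D0, Lrp2 and Cubn were 1.53 and 1.39 log2 units lower in replicate 2, which 2.16% and 3.42% of genes reached.

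Visceral endoderm markers also rose in WT, and some were lower in the knockouts at day 4. Of 16 such markers 11 rose and none fell in WT by day 4, where 23.8% of all genes rose, and the summed level was 399 to 442 CPM in WT D4 against 61.5 to 72.7 CPM in WT D0. Apob took 219 and 146 CPM of the WT D4 sum. Afp, the fetal serum protein of this tissue, had 1.49 and 4.05 CPM in S2/3DKO D4, 0 and 2.95 CPM in S4KO D4 and 52.2 and 42.9 CPM in WT D4. Ttr, the thyroid hormone carrier, had 6.59 and 4.23 CPM in S2/3DKO D4, 0 and 0.933 CPM in S4KO D4 and 13.6 and 22.4 CPM in WT D4. Every knockout library of either gene lay below both WT D4 libraries, but neither gene was called, with edgeR adjusted p of 0.0554 for Afp and 0.283 for Ttr in S2/3DKO and of 0.0983 and 0.0734 in S4KO. At day 4, 7.21% of all genes were higher and 8.0% lower in S2/3DKO than in WT, and 0.679% higher and 1.05% lower in S4KO. Of the visceral endoderm markers, 4 were lower and 1 higher in S2/3DKO, at a summed 162 to 167 CPM, and 6 were lower in S4KO, at 43.5 to 66.2 CPM. The marker that was higher in S2/3DKO was the homeobox gene Rhox5, and those that were lower included Apob, Slc39a8 and Apoa1. Rhox5 made up the larger part of the S2/3DKO D4 sum, with 87.5 and 101 CPM, against 24.1 and 24.4 CPM in WT D4. All 6 shared endoderm factors rose in WT, and 3 were lower at day 4 in S2/3DKO (50.1 to 66.1 CPM, against 120 to 150 CPM in WT) and 5 in S4KO (12.6 to 13.3 CPM). Of 11 parietal endoderm markers, 3 were higher and 1 lower in S2/3DKO D4 (1750 to 2040 CPM, against 1140 to 1650 CPM in WT), and 3 were lower in S4KO (417 to 664 CPM). Of 14 trophectoderm markers, 12 were higher and 1 lower in S2/3DKO D4, at 2620 to 3140 CPM against 501 to 698 CPM in WT, and in S4KO D4 1 was higher and 1 lower, at 178 to 379 CPM. Eomes, the marker that was lower in S2/3DKO, took 249 and 241 CPM of the WT D4 sum. It had 7.15 and 5.92 CPM in S2/3DKO D4 and 12.2 and 15.8 CPM in S4KO D4. Of 7 definitive endoderm markers, 5 were lower in S2/3DKO D4 (82.3 to 86.4 CPM, against 358 to 364 CPM in WT) and 4 in S4KO D4 (66.9 to 132 CPM). Otx2 took 275.5 and 237 CPM of that WT D4 sum. Of 5 early neural markers tested, 1 was lower in S2/3DKO D4 and 2 higher in S4KO D4 than in WT D4. The WT D4 sum was 134 to 146 CPM, of which Nes took 132 and 144 CPM. Of 6 pluripotency genes, 2 were lower in S2/3DKO D4 (616 to 792 CPM, against 1040 to 1490 CPM in WT) and 1 higher in S4KO D4 (1250 to 2080 CPM). Marker genes are named here after their values were seen. How far the share of visceral endoderm cells sets the level of the 4 members was not tested.

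Across the 12 libraries, the patterns of Cubn and Dab2 were close to each other. Their log2 CPM values had a Pearson r of 0.985, and of 11797 genes compared none outside the complex was closer to Cubn than Dab2 was, and 1 was closer to Dab2 than Cubn was. That gene was Amot, angiomotin, a junction protein, with r of 0.991 to Dab2 and 0.980 to Cubn. Lrp2 had r of 0.931 with Dab2 and 0.905 with Cubn, and 71 other genes were closer to it than Dab2 and 155 than Cubn. Amn had r of 0.705 to 0.718 with the other members, and 317 other genes were closer to it than Dab2, 333 than Lrp2 and 358 than Cubn. The libraries share genotype and day, so r describes the shared pattern of these 12 libraries.

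The 5 genes nearest to each member were named by r alone. For Cubn they were Amot (0.980), the adhesion docking protein gene Nedd9 (0.980), the secreted Wnt antagonist gene Frzb (0.969), the endocytic motor gene Myo6 (0.966) and Cobll1 (0.965). For Dab2 they were Amot (0.991), Frzb (0.983), the collagen prolyl hydroxylase gene P3h2 (0.979), Nedd9 (0.976) and Cobll1 (0.974). Amot had 78.4 CPM in S2/3DKO D4, 42.0 CPM in S4KO D4 and 394 CPM in WT D4, and 4.94 CPM in WT D0. For Lrp2 the nearest were the extracellular matrix genes Fras1 (0.986) and Frem2 (0.972), the semaphorin gene Sema5a (0.977), Sertad4 (0.971) and Fnd3c2 (0.971). For Amn they were Parp10 (0.925), the apolipoprotein gene Apoa1 (0.922), the integrin gene Itgb5 (0.922), Pkdcc (0.906) and Ppt2 (0.903). Like Amn, Apoa1 was higher in WT D4 replicate 2 (17 CPM) than in replicate 1 (7.74 CPM).

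The wider endocytic machinery moved in both directions. Among 49 other genes of uptake (receptors, adaptors, coat, endosome, acidification and lysosome), 20 rose and 7 fell in WT by day 4, where 23.8% of all genes rose and 19.9% fell. The median log2 fold change of the 49 was 0.31, beside 0.083 over all genes. Without WT D0 replicate 1, 13 rose and 4 fell, and without WT D4 replicate 2, 11 fell. Of 11 receptors 6 rose and 1 fell. Lrp4, a low-density lipoprotein receptor relative, had 32.2 and 36.6 CPM in WT D4 and 6.02 and 5.90 CPM in WT D0 (2.53 ± 0.26, edgeR, adjusted p = 0.000144). The lipoprotein receptor gene Vldlr rose by 2.09 ± 0.30 (0.000567). Fcgrt, the neonatal Fc receptor, fell to 0.737 and 1.72 CPM in WT D4, against 11 and 10.1 CPM in WT D0 (-3.10 ± 0.54, 0.00137).

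Downstream of the receptors, the motor gene Myo6, which drives uptake of such receptors along actin, rose by 2.20 ± 0.23 (adjusted p = 0.000167). The chloride/proton exchanger gene Clcn5, needed to acidify endosomes in the kidney tubule, had 116 and 81.3 CPM in WT D4 and 15.1 and 12.7 CPM in WT D0 (2.83 ± 0.31, 0.000203). The clathrin light chain gene Cltb fell to 4.72 and 7.87 CPM in WT D4, against 138 and 122 CPM in WT D0 (-4.37 ± 0.29, 2.76e-05). The adaptor genes Ap2s1, the small AP2 subunit (-1.5 ± 0.36, 0.00687), and Numbl (-1.48 ± 0.46, 0.0225) also fell. Like Amn, both were higher in WT D4 replicate 2 than in replicate 1, Ap2s1 with 70.6 and 32.0 CPM and Numbl with 34.2 and 11.9 CPM.

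In the knockouts at day 4 the partner genes moved in both directions or were not called. In S2/3DKO, 9 of 49 were higher and 5 lower than in WT D4, where 7.21% of all genes were higher and 8.0% lower, and the median was 0.191. Without S2/3DKO D4 replicate 1, 1 was higher and 3 lower, and without replicate 2, 1 was higher and 2 lower. Dab1, an adaptor of the same family as Dab2, had 4.49 and 5 CPM in S2/3DKO D4 and 27.5 and 23.5 CPM in WT D4 (-2.43 ± 0.31, edgeR, adjusted p = 0.000741). Lrp4 (-1.71 ± 0.25, 0.00137), the sorting receptor gene Sort1 (-1.37 ± 0.26, 0.00603) and the lysosomal protease gene Ctsl (-1.43 ± 0.25, 0.004) were also lower. Cltb (1.5 ± 0.26, 0.0037), the endosome tether gene Eea1 (1.36 ± 0.34, 0.0223) and the proton pump gene Atp6v0a4 (1.32 ± 0.34, 0.0239) were among those higher. In S4KO, 1 of 49 was lower and none higher, where 1.05% of all genes were lower and 0.679% higher. That gene was Ctsl, with 250 and 240 CPM in S4KO D4 and 588 and 491 CPM in WT D4 (-1.14 ± 0.25, adjusted p = 0.0472). By an unadjusted p below 0.05, 4 were higher and 8 lower in S4KO, and by DESeq2 2 were higher and 3 lower.

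At day 0, 21 of 49 partner genes were higher and 3 lower in S2/3DKO than in WT, with a median of 0.589, where 16.7% of all genes were higher and 14.4% lower. The number higher was 2 without WT D0 replicate 1, 10 without WT D0 replicate 2 and 8 without S2/3DKO D0 replicate 2. Eea1 had 41.5 and 45.3 CPM in S2/3DKO D0 and 10.1 and 9.60 CPM in WT D0 (2.14 ± 0.36, edgeR, adjusted p = 0.00269). The recycling gene Rab11fip2 (1.72 ± 0.32, 0.00377), the coat initiator gene Fcho2 (1.65 ± 0.27, 0.00269) and the phosphatase gene Ocrl (1.49 ± 0.26, 0.00298) were also higher. Cltb (-1.59 ± 0.26, 0.00252), Ap2s1 (-1.56 ± 0.36, 0.00947) and the other light chain gene Clta (-0.93 ± 0.22, 0.0101) were lower.

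**Figure D4:**
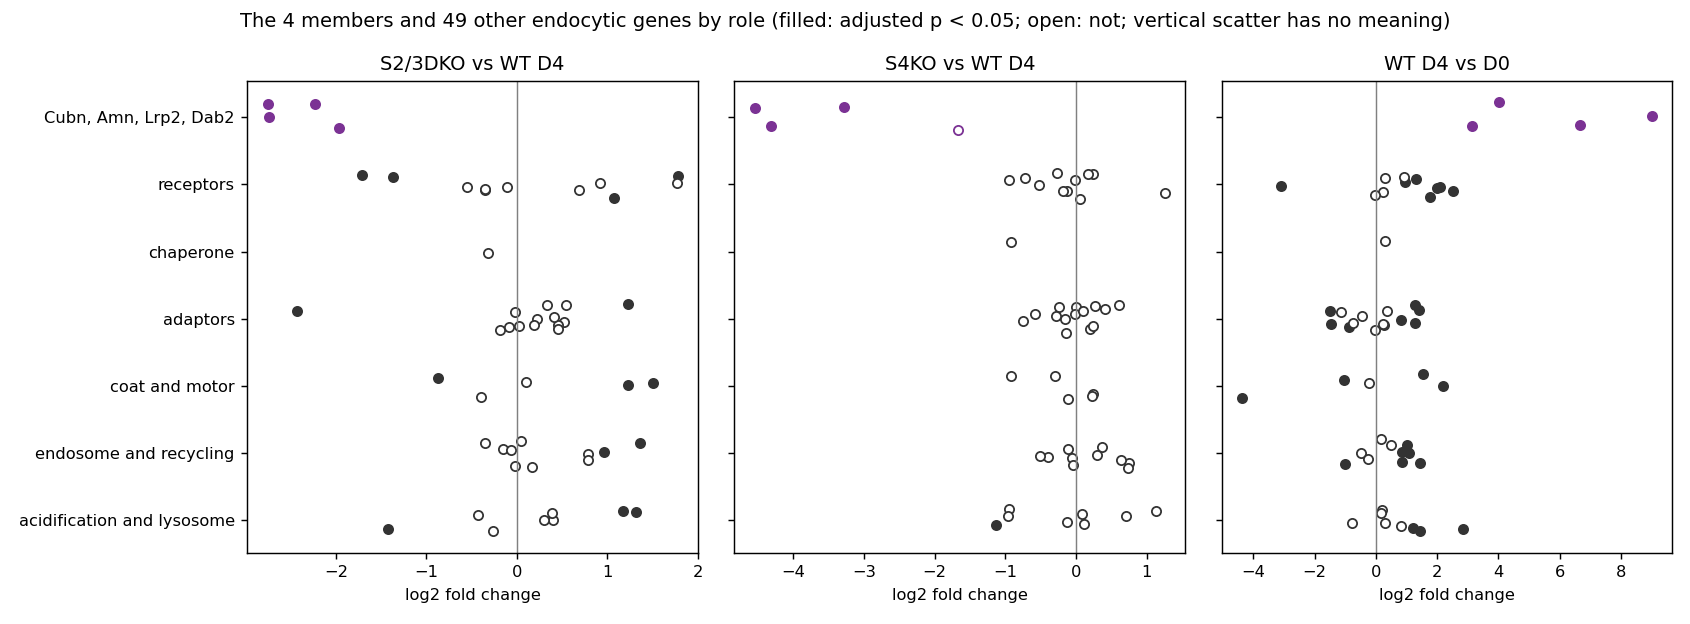
Log2 fold changes of the 4 members (purple) and 49 other endocytic genes (dark) by role, in S2/3DKO against WT at day 4, S4KO against WT at day 4, and WT day 4 against day 0. Filled points had an adjusted p below 0.05. The partners scatter around 0 in the knockout panels, with 1 filled in S4KO, while the members lie between -1.66 and -4.54 there.

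Genes of proteins known to bind cubilin or megalin were measured in the same libraries. Of 21 such ligand genes 15 passed the filter, and 6 rose and 3 fell in WT by day 4 (3 rose without either WT D0 library), where 23.8% of all genes rose and 19.9% fell. Apob and Apoa1, the apolipoproteins of lipoproteins that megalin or cubilin take up, rose by 8.80 ± 0.86 (edgeR, adjusted p = 0.000126) and 4.73 ± 0.73 (0.000731). The metallothionein genes Mt1 and Mt2 and the growth factor gene Bmp4 were those that fell. At day 4, Apob was lower than in WT by a log2 fold change of -5.41 ± 0.72 in S2/3DKO (0.000872) and -5.75 ± 0.73 in S4KO (0.00363), and Apoa1 of -3.08 ± 0.66 (0.0104) and -4.25 ± 0.71 (0.0148). Mt2 was higher in S2/3DKO (1.90 ± 0.44, 0.0147) and the retinol carrier gene Rbp4 lower in S4KO (-1.78 ± 0.38, 0.0429). The ligands Alb, Apoh and Scgb1a1 had no counts in any group. Ligand genes are named here after their values were seen.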

How the data were processed

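RNA was measured by RNA-seq (TruSeq RNA library kit, per the labels' protocols) in 12 mouse ES cell libraries, 2 in each of 6 groups. The authors deposited a table of counts per gene and a table of FPKM. Per the submitters' processing notes, the build was mm10 and the tools named were Cufflinks, StringTie and DESeq2, with no version or role given. The sources used here name no aligner, strand setting or counting rule. The deposited count table holds whole numbers for 32285 gene IDs, of which 32235 paired with a symbol. It has fewer entries of 1 (4966) than of 2 (6989), so the counts may not be direct read tallies. FPKM values were used as deposited, without pooling.

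Counts were fitted with edgeR 4.0.16 (R 4.3.3; TMM scaling, filterByExpr, quasi-likelihood test) on all 12 libraries with 1 coefficient per group. Adjusted p is Benjamini-Hochberg over 18693 genes and 11 comparisons were made, each called at 0.05. The common biological coefficient of variation was 0.286. CPM are TMM-scaled, and FPKM was used where levels of the 4 members were compared with each other. Marker sums add CPM over genes, so genes with longer transcripts weigh more in them. Alternatives were RLE scaling, DESeq2 1.42.0, other filters, limma 3.58.1 on log2(FPKM + 1) and log2(FPKM + 0.1), a replicate block, offsets that take out the trend of counts with exon length and G and C content (18682 genes), a minimum absolute log2 fold change of 1, and leaving out each library. The scripts were tested on simulated counts. Library totals of 31566376 to 55806858 counts set the counting error, which weighs most on the lowest counts, such as those of Amn in S4KO D0 and of Cubn in WT D0.

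The 4 genes and the lists of partners, ligands and markers (visceral, parietal and definitive endoderm, shared endoderm factors, trophectoderm, early neural, pluripotency) were written from general knowledge with earlier results of these data known. Partners were named if called, with groups that did not overlap and a mean of at least 5 CPM in the higher group, up to 4 in each direction. Some genes that the rules would name are not reported here. The nearest patterns were the 5 genes with the highest Pearson r of log2(CPM + 1) whose highest group mean reached 5 CPM, passing over predicted gene models. The 49 partner genes were all tested.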

Additional observations from a re-analysis of the deposited data

Results flagged for a closer look

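For 2 genes the change by day 4 differed between a knockout and WT by a test of the difference itself (edgeR's quasi-likelihood test over all genes). The Cubn change was -6.47 log2 units relative to WT in S2/3DKO (adjusted p = 0.00664) and -5.46 in S4KO (adjusted p = 0.023). Over the settings that kept every library these were -6.516 to -3.185 and -5.528 to -3.814, and WT D0 Cubn rests on 22 and 35 counts. The Dab2 change was -4.36 log2 units relative to WT in S2/3DKO (adjusted p = 0.0127). The part of cell composition, of the WT D0 libraries with their larger share of ribosomal protein transcripts, and of parental line in these differences was not tested.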

How the results depend on the processing

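All values in this paragraph count the 4 genes called. In S2/3DKO D4 against D0, settings other than leaving out a library called 2 to 4 in place of 3, the fourth being Amn with the length and G and C trend removed. In S4KO D4 against D0, limma on log2(FPKM + 1) without a filter called 1 gene in place of 3. In S2/3DKO against WT at D0, limma on log2(FPKM + 1) called 1 with a filter and 0 without, in place of 2. In S4KO against WT at D0, DESeq2 and edgeR without a filter each called 1 in place of 0. In S2/3DKO against WT at D4, limma without a filter called 2 in place of 4. In S4KO against S2/3DKO at D0, RLE, DESeq2, no filter, the 1 CPM filter, log2(FPKM + 0.1) and removal of the length and G and C trend called 2, and log2(FPKM + 1) 0 with or without a filter, in place of 1. At D4, no filter called 2 in place of 1. For the S4KO difference in change, DESeq2, no filter, the 1 CPM filter and both limma fits with a filter called 2 in place of 1. Leaving out 1 library gave 3 to 4 for WT D4 against D0, 0 to 3 for S2/3DKO, 2 to 3 for S4KO, 1 to 2 and 0 to 4 for S2/3DKO against WT at D0 and D4, and 0 to 1 and 2 to 3 for S4KO against WT. It gave 0 to 2 and 0 to 1 for S4KO against S2/3DKO at D0 and D4, 1 to 2 for the S2/3DKO difference in change and 0 to 2 for the S4KO difference. The fits with 1 library left out also rest on fewer samples, and the cause of these changes was not tested.

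Same-numbered libraries deviated from their group means with correlations of -0.126 to 0.291 between groups. Whether they were handled together is not stated, and such correlations cannot settle it. With the replicate number as a block, 0 genes in place of 1 were called in S4KO against S2/3DKO at D4 (Cubn, adjusted p = 0.0505). The block also took Lrp2 in S2/3DKO D4 against D0 to 0.0531 and Amn at D4 against WT to 0.0866 in S2/3DKO and 0.051 in S4KO.

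Signs turned for uncalled values. Lrp2 in S2/3DKO against WT at D0 was 0.00083 under RLE, 0.00084 under DESeq2, 0.0011 without a filter, 0.032 with the 1 CPM filter, 0.17 on log2(FPKM + 1) and 0.24 on log2(FPKM + 0.1), and -0.084 to 0.051 with 1 library left out. Dab2 in S4KO against WT at D0 was -0.15 with the trend removed. Lrp2 in S4KO against S2/3DKO at D4 was -0.033 on log2(FPKM + 1), with or without a filter, and -0.060 on log2(FPKM + 0.1), and -0.92 to 0.90 with 1 library left out. With 1 library left out, S4KO against WT at D0 was -0.022 to 1.52 for Cubn and -1.49 to 0.079 for Lrp2, and S4KO against S2/3DKO at D0 was -1.50 to 0.062 for Lrp2. The Amn difference in change was -2.04 to 0.56 in S2/3DKO and -2.52 to 0.12 in S4KO. In the order of groups, 4 of 6 kept their place for Lrp2 on CPM, where WT D0 and S2/3DKO D0 changed places. The median over all genes was 0.13 on log2(FPKM + 1), against 0.02 by edgeR, in S2/3DKO against WT at D0.

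Counts of all genes called, on which the background shares rest, moved with single libraries and with the method. Without WT D0 replicate 1 they were 4080 in place of 8157 for WT D4 against D0, 921 in place of 5799 for S2/3DKO and 18 in place of 3663 for S4KO against WT at D0. Without S2/3DKO D4 replicate 2 they were 38 in place of 1315 for S2/3DKO D4 against D0 and 868 in place of 2842 against WT. Without WT D4 replicate 2 they were 3887 in place of 1140 and 2008 in place of 28 for the S2/3DKO and S4KO differences in change. Without S4KO D4 replicate 2 they were 225 in place of 1663 for S4KO D4 against D0, and without S4KO D4 replicate 1 they were 78 in place of 323 against WT. Without S2/3DKO D0 replicate 2 they were 334 in place of 1034 for S4KO against S2/3DKO at D0, and without S2/3DKO D4 replicate 2 632 in place of 2298 at D4. DESeq2 called 1057 in place of 323 in S4KO against WT at D4 and 2884 in place of 1663 in S4KO D4 against D0. With the length and G and C trend removed they were 2741 in place of 1315 for S2/3DKO D4 against D0, 4487 in place of 2842 for S2/3DKO against WT at D4, and 2131 in place of 1034 and 4003 in place of 2298 for S4KO against S2/3DKO at D0 and D4.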
